A study of Rattus norvegicus and Mus musculus with 25 samples.

Results

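Vldlr, the very low density lipoprotein receptor, was examined in heart muscle cells of 1-day-old C57BL/6 mice by setting 3 libraries of Myh6-Cre;Vldlr f/f cells against 3 of Vldlr f/f cells. These 6 libraries were chosen by genotype from 25 in the series, of which 16 are from rat. Myh6-Cre;Vldlr f/f (cKO below) carries both Vldlr copies flanked by loxP sites and a Cre recombinase driven by the cardiomyocyte promoter of Myh6. Vldlr f/f carries the same floxed copies without Cre. The other 3 mouse libraries, Myh6-Cre;Vldlr f/+ (cHet below), carry Cre with a single floxed copy. They entered the fit to estimate the spread and are given here for comparison. No group carries Cre without a floxed allele, so between cKO and Vldlr f/f the effect of Cre and that of losing Vldlr cannot be told apart. The table lists 54083 genes, and 14464 with at least 1 CPM in 3 of these 6 libraries were tested. Levels are in CPM, counts scaled to the same total in every library.

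VLDLR is a member of the low density lipoprotein receptor family, a set of single-pass membrane proteins that bind ligands through cysteine-rich repeats. In heart and other muscle it takes up triglyceride-rich lipoproteins that carry apolipoprotein E, together with lipoprotein lipase. It also binds reelin, a secreted matrix protein, and passes the signal to the adaptor DAB1 in neurons, a pathway that it shares with LRP8. By its title the study asks whether reelin and thrombospondin-1 control the division of cardiomyocytes by way of this receptor.

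The cells were cardiomyocyte-rich in each library, and the 2 genotypes had like amounts of Myh6 and of sarcomere transcripts in sum. Cardiac alpha-myosin heavy chain, Myh6, was 19313, 17963 and 14865 CPM in cKO libraries, against 15629.8, 20176 and 16188 CPM in Vldlr f/f libraries. The 32 sarcomere and Z-disc genes summed to 67025 to 76954 CPM in cKO and 69431 to 82583 CPM in Vldlr f/f libraries. Single cardiomyocyte transcripts were not all alike. Log2 fold changes of cKO over Vldlr f/f were 0.12 for Actc1, -0.07 for Tnnt2 and -0.70 for Ttn, all with overlap. Ryr2, given below, was lower in cKO without overlap in CPM. Other cell types were also present. Fibroblast markers summed to 4206 to 4449 CPM in cKO and 3523 to 4735 CPM in Vldlr f/f libraries. Endothelial markers summed to 2076 to 2772 CPM in cKO and 2230 to 2701 CPM in Vldlr f/f libraries. Mitochondrially encoded transcripts took 16% to 24.7% of a cKO library and 14.2% to 19.9% of a Vldlr f/f library. The libraries did not group by genotype. The first principal component, with 35.4% of the variance, set replicate 1 of cKO, replicate 1 of cHet and replicate 2 of Vldlr f/f apart from the rest, 1 library of each genotype. Correlations between cKO and Vldlr f/f libraries (0.924 to 0.964) spanned nearly the same range as those within cKO (0.921 to 0.961) and within Vldlr f/f (0.936 to 0.968).

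The sexes were not balanced. Xist, the RNA that silences an X chromosome in females, was 625, 0.255 and 269 CPM in cKO libraries, against 408, 0.0600 and 0 CPM in Vldlr f/f libraries. The Y-linked helicase gene Ddx3y was 0, 28.9 and 0 CPM in cKO libraries, against 0, 51.4 and 59.9 CPM in Vldlr f/f libraries. Replicate 2 of cKO and replicates 2 and 3 of Vldlr f/f therefore held RNA of males, and the other cKO and Vldlr f/f libraries and all 3 cHet libraries were female by these transcripts. Kdm5d, Eif2s3y and Uty, also Y-linked, were at 0 CPM in the same cKO and Vldlr f/f libraries as Ddx3y. Values within each sex are given for Vldlr and for the mitosis, fatty acid oxidation, fatty acid uptake, epicardial and smooth muscle lists. Most other results are not split by sex. The labels do not tie libraries to animals, and a p-value here reflects the spread among these 9 libraries.

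No gene passed the test across all 14464 genes in either direction (limma adjusted p under 0.05, 0.00% called higher and 0.00% called lower). An unadjusted p below 0.05 was reached by 441 genes (3.05%), of which 89 were higher in cKO (0.615%) and 352 lower (2.43%), where chance alone would give 723. Every cKO library lay above every Vldlr f/f library for 237 genes (1.64%) and below for 990 (6.84%). This excess of lower values depended on the scaling. The median log2 fold change of all genes was -0.11 in CPM as deposited, with 66.3% of genes negative, and was 0.00 after TMM scaling, a correction for a few abundant transcripts taking more of a library. After TMM scaling 522 genes (3.61%) were higher without overlap and 579 (4.00%) lower. Fold changes below are cKO over Vldlr f/f on log2(CPM + 1), and a gene group's median is to be read against -0.11. The values describe the 6 libraries. Adjusted p for each gene named below, other than RP23-391M18.7, was 0.996 or 0.997 in limma.

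**Figure D1:**
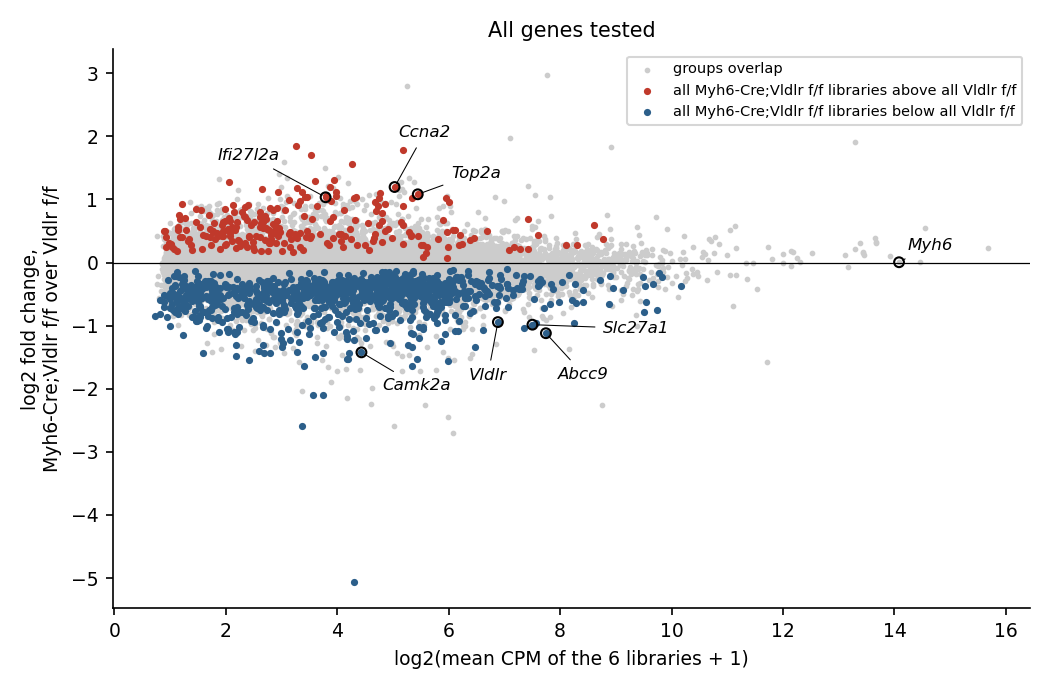
Log2 fold change (cKO over Vldlr f/f, vertical axis) against log2(mean CPM of the 6 libraries + 1, horizontal axis) for the 14464 genes tested. Red points are the 237 genes with all cKO libraries above all Vldlr f/f libraries and blue points the 990 with all below. Vldlr lies at -0.94 and Myh6 at 0.01.

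Vldlr itself was at 71.3, 78.9 and 85.1 CPM in cKO, 98.4, 112 and 100.2 CPM in cHet and 195, 109 and 164 CPM in Vldlr f/f libraries. All cKO values lay below all values of both other genotypes, while the cHet values overlapped those of Vldlr f/f through replicate 2 of Vldlr f/f. The mean was 78.4 ± 6.90 CPM in cKO, 103 ± 7.32 CPM in cHet and 156 ± 43.7 CPM in Vldlr f/f (SD, n = 3 each), so that cKO libraries kept 50.3% and cHet libraries 66.4% of the Vldlr f/f mean. The log2 fold change of cKO over Vldlr f/f was -0.94 ± 0.23 (SE), with an unadjusted limma p of 0.00214 and an adjusted p of 0.996. An exact two-sided permutation test gave p = 0.1, the smallest that 3 libraries against 3 can give. Within the male libraries cKO had 57.9% of the Vldlr f/f mean (1 library against 2), and within the female libraries 40.1% (2 against 1). Vldlr spans chr19:27216484-27254231 on the plus strand of GRCm38 (mm10) in GENCODE M21, with no other gene overlapping its exons. Which part of the gene is floxed is not stated in the labels, and a gene-level value also counts transcript that a deletion leaves. In such bulk libraries less RNA per cell and fewer cells that express a gene cannot be told apart.

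Of the 18 low density lipoprotein receptor family genes listed, 15 were tested, 12 of them with negative and 3 with positive fold changes (median -0.20, and -0.11 after TMM scaling). The median was -0.34 without replicate 3 of cKO and -0.09 without replicate 2 of cKO. Vldlr and Lrp4 were the 2 whose groups did not overlap, both lower, beside 6.84% of all genes. Apart from Vldlr, the floxed gene itself, only Lrp4 did so. Lrp4, known as the agrin coreceptor at the neuromuscular junction, was 14, 12.8 and 17.1 CPM in cKO libraries, against 27.2, 24.3 and 22.6 CPM in Vldlr f/f libraries, a log2 fold change of -0.72 ± 0.24 (SE, limma adjusted p = 0.996). The Wnt coreceptors overlapped, Lrp6 at 51.9, 37.6 and 41 CPM in cKO libraries, against 46.2, 58.4 and 65.2 CPM in Vldlr f/f libraries and Lrp5 at 42.2, 47.8 and 66.7 CPM in cKO libraries, against 89.6, 49.1 and 64.5 CPM in Vldlr f/f libraries. Lrp1, a large endocytic receptor, was 60.2, 81.9 and 122 CPM in cKO libraries, against 135, 74.3 and 105 CPM in Vldlr f/f libraries and overlapped. Ldlrad3 stood apart in a single library: it was 0.0440, 6.12 and 7.24 CPM in cKO libraries, against 5.82, 8.95 and 9.66 CPM in Vldlr f/f libraries. The second reelin receptor, Lrp8, was below the filter, with 2.02, 0.625 and 0.646 CPM in cKO and 0.389, 1.68 and 0.474 CPM in Vldlr f/f libraries.

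The ligands did not separate the genotypes. Reln, which encodes reelin, was 4.42, 4.76 and 6.2 CPM in cKO, 9.59, 6.09 and 5.78 CPM in cHet and 7.09, 4.13 and 8.77 CPM in Vldlr f/f libraries. Thbs1, which encodes thrombospondin-1, was 63.4, 29 and 89.1 CPM in cKO, 43.8, 29.2 and 156 CPM in cHet and 30.7, 79.1 and 83.9 CPM in Vldlr f/f libraries. Both sets of groups overlapped. The log2 fold change of Thbs1 was -0.10 ± 0.63 (SE) and turned positive, 0.02, after TMM scaling. Of 23 reelin pathway genes tested 19 were negative (median -0.16, and -0.05 after TMM scaling), and none separated the groups. Dab1, the neuronal adaptor of the pathway, was at or under 0.180 CPM in each of the 6 libraries, and the related endocytic adaptor Dab2 was 12.6, 18.7 and 17.1 CPM in cKO libraries, against 26.1, 12.1 and 33.3 CPM in Vldlr f/f libraries. Gsk3b, a kinase gene downstream of the pathway, had the smallest p of the list at 76.5, 7.76 and 36.3 CPM in cKO libraries, against 64.7, 83.5 and 105 CPM in Vldlr f/f libraries. Its cKO values spread widely and overlapped those of Vldlr f/f. Among 10 thrombospondins and their receptors 1 separated the groups, a share near the 6.84% of all genes that were lower without overlap. This was Cd36, a thrombospondin receptor and fatty acid translocase, at 643, 615 and 659.5 CPM in cKO libraries, against 843, 715 and 941 CPM in Vldlr f/f libraries.

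**Figure D2:**
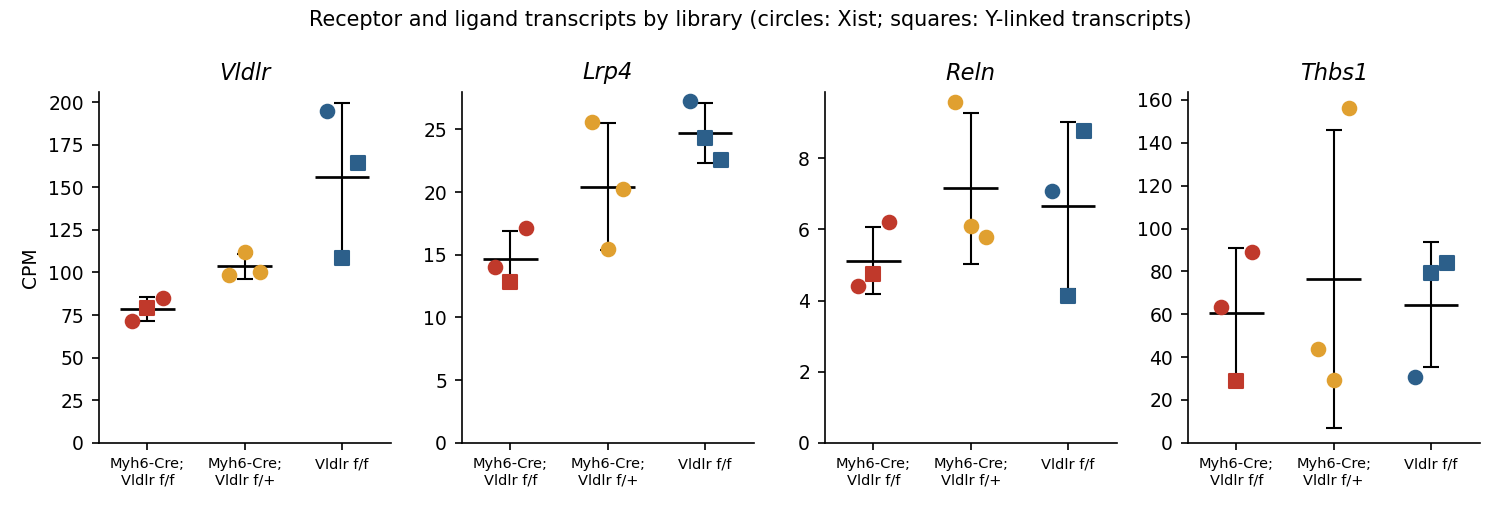
CPM (vertical axes, from 0) of Vldlr, Lrp4, Reln and Thbs1 in each library of Myh6-Cre;Vldlr f/f, Myh6-Cre;Vldlr f/+ and Vldlr f/f. Circles are libraries with Xist, squares libraries with Y-linked transcripts, and bars the mean ± SD (n = 3). For Vldlr and Lrp4 the 3 cKO libraries lie below the 3 Vldlr f/f libraries, and for Reln and Thbs1 the groups overlap.

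Transcripts of mitosis and cytokinesis were higher in cKO libraries on average. Of 42 tested, 41 were positive in fold change, and the median was 0.89 (1.00 after TMM scaling) against -0.11 for all genes. For 18 of them all cKO libraries lay above all Vldlr f/f libraries, as they did for 1.64% of all genes, and 18 had an unadjusted limma p under 0.05 with a positive sign, as had 0.615% of all genes. None passed the adjusted threshold. Summed over the list, the genes had 769, 772 and 1139 CPM in cKO, 462, 702 and 996 CPM in cHet and 238, 685 and 579 CPM in Vldlr f/f libraries. Replicate 1 of Vldlr f/f was the lowest of all 9 libraries for 37 of the 42 genes, and replicate 3 of cKO the highest for 22. Without replicate 1 of Vldlr f/f the median was 0.51, and no gene of the list beyond these 18 separated cKO from Vldlr f/f replicates 2 and 3, while the share of all genes that did so was 3.31%. Relative to the Vldlr f/f mean, the median member stood at 0.75, 0.74 and 1.22 in cKO and at -0.75, 0.40 and 0.36 in Vldlr f/f replicates 1, 2 and 3. Among the males this puts 0.74 in cKO beside 0.40 and 0.36 in Vldlr f/f, and among the females 0.75 and 1.22 beside -0.75.

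Ccna2, cyclin A2, which drives S phase and entry into mitosis, was 33.7, 42.7 and 55.1 CPM in cKO, 18.5, 36.3 and 41.8 CPM in cHet and 10.2, 22 and 26.3 CPM in Vldlr f/f libraries, and the log2 fold change of cKO over Vldlr f/f was 1.20 ± 0.39 (SE, limma adjusted p = 0.996). The cHet values overlapped both other genotypes. Top2a, the topoisomerase that untangles sister chromatids, was 44.4, 58.1 and 67.2 CPM in cKO libraries, against 13.2, 31.2 and 41.4 CPM in Vldlr f/f libraries. All 3 cKO values lay above the highest Vldlr f/f value, by less in replicate 1. Ndc80, Nuf2 and Spc25 encode subunits of a single kinetochore complex that holds spindle microtubules, and each separated the groups. Ndc80 was 11.4, 10.6 and 14.1 CPM in cKO libraries, against 2.02, 8.0 and 5.87 CPM in Vldlr f/f libraries. Nuf2 was 9.44, 13.9 and 8.44 CPM in cKO libraries, against 2.57, 5.73 and 6.84 CPM in Vldlr f/f libraries. Spc25 was 11.3, 15 and 12.8 CPM in cKO libraries, against 3.07, 8.33 and 7.36 CPM in Vldlr f/f libraries. For each of them replicate 1 of Vldlr f/f was the lowest library. Nusap1, a spindle protein gene, was 17, 19.1 and 25.5 CPM in cKO libraries, against 3.65, 9.79 and 11.6 CPM in Vldlr f/f libraries. Cdk1, the kinase that drives entry into mitosis, was 32.2, 27.6 and 39.1 CPM in cKO libraries, against 9.86, 26 and 19.4 CPM in Vldlr f/f libraries. Its lowest cKO value was close above its highest Vldlr f/f value. Cdca8, a subunit of the chromosomal passenger complex, was 14.5, 13.3 and 16.6 CPM in cKO libraries, against 4.07, 10.7 and 9.2 CPM in Vldlr f/f libraries, and Birc5, which encodes the subunit survivin, was 16.9, 16.7 and 25 CPM in cKO libraries, against 3.81, 14.2 and 11.5 CPM in Vldlr f/f libraries. Aurkb, the kinase of the same complex, was 10.3, 5.63 and 7.04 CPM in cKO libraries, against 3.07, 6.61 and 7.73 CPM in Vldlr f/f libraries and overlapped. Kif20a, a motor of the central spindle, was 14, 22.2 and 42.3 CPM in cKO libraries, against 9.28, 13.3 and 11.3 CPM in Vldlr f/f libraries. The proliferation marker Mki67 overlapped, at 89.7, 73.5 and 63.1 CPM in cKO libraries, against 11.7, 85.7 and 60.5 CPM in Vldlr f/f libraries, and only replicate 1 of Vldlr f/f was far from the others. Cyclin B1, Ccnb1, overlapped too, at 13.1, 19.3 and 40.4 CPM in cKO libraries, against 2.94, 15.1 and 12.3 CPM in Vldlr f/f libraries.

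Other parts of the cell cycle did not show this shift to the same degree, a contrast that was not tested. Counts of members that separated the groups are to be read beside 1.64% of all genes for higher and 6.84% for lower. Of 42 DNA replication genes 32 were positive, the median was 0.12 (0.24 after TMM scaling), and 1, the origin recognition gene Orc6, separated the groups at 12.9, 9.97 and 13.8 CPM in cKO libraries, against 8.07, 9.19 and 9.26 CPM in Vldlr f/f libraries. Rrm2, the small subunit of ribonucleotide reductase, was 34.5, 30.8 and 22.4 CPM in cKO libraries, against 10.05, 19.9 and 29.5 CPM in Vldlr f/f libraries and Pcna, the sliding clamp of DNA polymerase, was 76.8, 55.5 and 50.1 CPM in cKO libraries, against 43.8, 45.1 and 58.4 CPM in Vldlr f/f libraries. Both groups overlapped. The list median turned to -0.12 without replicate 1 of cKO and to -0.0025 without replicate 1 of Vldlr f/f. Of 25 G1 cyclins, kinases, E2F and Rb genes 11 were positive and 14 negative (median -0.06). Tfdp1, the dimer partner of E2F factors, was among the negative ones at 21.8, 20.2 and 16.2 CPM in cKO libraries, against 24.9, 26.4 and 34.3 CPM in Vldlr f/f libraries, without overlap, and Lin54, a DNA-binding subunit of the complex that controls cell cycle genes, separated them the other way at 9.11, 9.31 and 13.8 CPM in cKO libraries, against 6.0, 7.57 and 8.86 CPM in Vldlr f/f libraries. Of 26 cell cycle inhibitors and p53 targets 13 were positive and 13 negative (median 0.01). Cdkn3, a phosphatase that acts on cyclin-dependent kinases, was 7.2, 7.6 and 12.7 CPM in cKO libraries, against 2.12, 8.74 and 2.9 CPM in Vldlr f/f libraries, with overlap, and Plk2, a stress-induced polo-like kinase, was the 1 member that separated the groups, at 96.6, 79.8 and 102 CPM in cKO libraries, against 65.4, 71.2 and 78.9 CPM in Vldlr f/f libraries.

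The 15 genes of smallest p that were higher in cKO without overlap and averaged at least 5 CPM in a group included the mitosis genes Ccna2, Spc25, Ndc80 and Top2a described above. Fam64a, a regulator of the step from metaphase to anaphase, was 13.7, 9.85 and 12.6 CPM in cKO libraries, against 3.0, 8.27 and 6.72 CPM in Vldlr f/f libraries. Psrc1, a spindle protein gene, was 7.04, 5.83 and 7.46 CPM in cKO libraries, against 2.65, 4.74 and 3.23 CPM in Vldlr f/f libraries. Neil3, a DNA glycosylase of replicating cells, was 10.6, 6.19 and 6.92 CPM in cKO libraries, against 2.12, 5.66 and 4.32 CPM in Vldlr f/f libraries. Ckap2l, which also encodes a spindle protein, was 15.9, 16.9 and 28.4 CPM in cKO libraries, against 4.67, 10.1 and 12.7 CPM in Vldlr f/f libraries. The first of the 15 was Ifi27l2a, an interferon-inducible mitochondrial protein gene, at 20.4, 18.2 and 14.1 CPM in cKO libraries, against 6.2, 9.53 and 8.58 CPM in Vldlr f/f libraries, with a log2 fold change of 1.03 ± 0.27 (SE, limma adjusted p = 0.996). The cHet values, 17.8, 13.7 and 11.1 CPM, also lay above all Vldlr f/f values. A close paralogue, Ifi27l2b, could share its reads. Of 46 interferon response genes 20 were positive and 26 negative (median -0.08). Ano6, a calcium-activated lipid scramblase, was 28.4, 34.9 and 48.1 CPM in cKO libraries, against 20.5, 16 and 19.2 CPM in Vldlr f/f libraries. Rpl41, a ribosomal protein gene with pseudogene copies that could share its reads, was 376, 567 and 471 CPM in cKO libraries, against 346, 294 and 281 CPM in Vldlr f/f libraries. The cKO values of both genes all lay above the Vldlr f/f range, as the rule of no overlap requires. The mitochondrial leucine tRNA mt-Tl1 was 183, 285 and 168 CPM in cKO libraries, against 118, 148 and 120.4 CPM in Vldlr f/f libraries. Ctla2a, a cysteine protease inhibitor with a near-identical neighbour in the genome, was 24.4, 35.2 and 40.8 CPM in cKO libraries, against 21.6, 21.2 and 18.6 CPM in Vldlr f/f libraries. Krt18, also among the 15, is described with the epicardial markers.

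Fatty acid oxidation genes were lower in cKO on average. Of 37 tested, 34 were negative in fold change, and the median was -0.44 (-0.31 after TMM scaling) against -0.11 for all genes (0.00 after TMM scaling). For 4 of them all cKO libraries lay below all Vldlr f/f libraries, as they did for 6.84% of all genes, a background share not far below that of the list. After TMM scaling 1 member was lower without overlap, beside 4.00% of all genes, and 1 was higher, beside 3.61%. Replicate 2 of Vldlr f/f did not share the level of its group: relative to the Vldlr f/f mean the median member stood at -0.35, -0.25 and -0.63 in cKO and at 0.26, -0.47 and 0.19 in Vldlr f/f replicates 1, 2 and 3. Within the males, cKO at -0.25 lay between the Vldlr f/f values of -0.47 and 0.19. The cHet libraries stood at -0.58, -0.06 and -0.74. The list median ran from -0.60 to -0.32 when a library was left out.

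Acot2, a mitochondrial acyl-CoA thioesterase, was 174, 127 and 88.4 CPM in cKO libraries, against 285, 179.6 and 283 CPM in Vldlr f/f libraries, with no overlap. Cpt1b, the muscle carnitine palmitoyltransferase that admits long-chain fatty acids to mitochondria, was 449.6, 516 and 457 CPM in cKO libraries, against 756, 535 and 650.0 CPM in Vldlr f/f libraries. Acaa2, the thiolase of the last step of oxidation, was 712, 723 and 463 CPM in cKO libraries, against 1339, 724 and 1172 CPM in Vldlr f/f libraries, where its highest cKO value and lowest Vldlr f/f value were nearly equal. Acadl, the long-chain acyl-CoA dehydrogenase, was 1059.5, 1084 and 865 CPM in cKO libraries, against 1428, 1135 and 1325 CPM in Vldlr f/f libraries. After TMM scaling the groups overlapped for Cpt1b, Acaa2 and Acadl. Cpt1a, the isoform that prevails in liver and the fetal heart, was 91.7, 114 and 99.7 CPM in cKO libraries, against 215, 99.5 and 191 CPM in Vldlr f/f libraries and overlapped.

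Of 33 genes of fatty acid uptake and lipid storage 27 were negative (median -0.23, and -0.13 after TMM scaling), and 6 separated the groups in CPM, all lower in cKO, beside 6.84% of all genes. After TMM scaling 6 did so, beside 4.00% of all genes. Among the males, the median member relative to the Vldlr f/f mean stood at -0.22 in cKO, beside -0.21 and 0.05 in Vldlr f/f. Among the females it stood at -0.36 and -0.19 in cKO, beside 0.22 in Vldlr f/f. Slc27a1, which encodes the fatty acid transport protein FATP1, was 158, 105 and 97.1 CPM in cKO libraries, against 333, 199 and 191 CPM in Vldlr f/f libraries, a log2 fold change of -0.98 ± 0.27 (SE, limma adjusted p = 0.996). Its cHet values of 167, 137 and 129 CPM also lay below all Vldlr f/f values. Lipe, hormone-sensitive lipase, was 44.8, 32.2 and 31.1 CPM in cKO libraries, against 91.2, 47.2 and 79.5 CPM in Vldlr f/f libraries. Mttp, which loads lipid onto apolipoprotein B, was 6.31, 3.96 and 5.74 CPM in cKO libraries, against 8.97, 8.72 and 9.72 CPM in Vldlr f/f libraries. Slc27a1 and Cd36 above handle fatty acids that reach the cell. Plin5, which coats lipid droplets beside mitochondria, was 36.5, 42.9 and 38.7 CPM in cKO libraries, against 76.6, 49.3 and 63.1 CPM in Vldlr f/f libraries, and Dgat1, the last enzyme of triglyceride synthesis, was 24.3, 21 and 26.4 CPM in cKO libraries, against 34.5, 29.98 and 30.3 CPM in Vldlr f/f libraries. Fabp4, a fatty acid binding protein of endothelium and fat, was 653, 572 and 494 CPM in cKO libraries, against 625, 918 and 761 CPM in Vldlr f/f libraries and overlapped. Lpl, the lipase that releases fatty acids from lipoproteins beside VLDLR, ran the other way in mean with overlapping groups, at 921, 1326 and 1937 CPM in cKO libraries, against 971, 975 and 1030.0 CPM in Vldlr f/f libraries. Sterol and fatty acid synthesis genes were split, 15 positive and 17 negative of 32 (median -0.06), as were 31 genes of glycolysis and glucose uptake, 15 positive and 16 negative (median -0.03). The tricarboxylic acid cycle list had 16 of 21 negative (median -0.14, and -0.02 after TMM scaling), and the nuclear-encoded respiratory chain 28 of 46 (median -0.04).

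**Figure D3:**
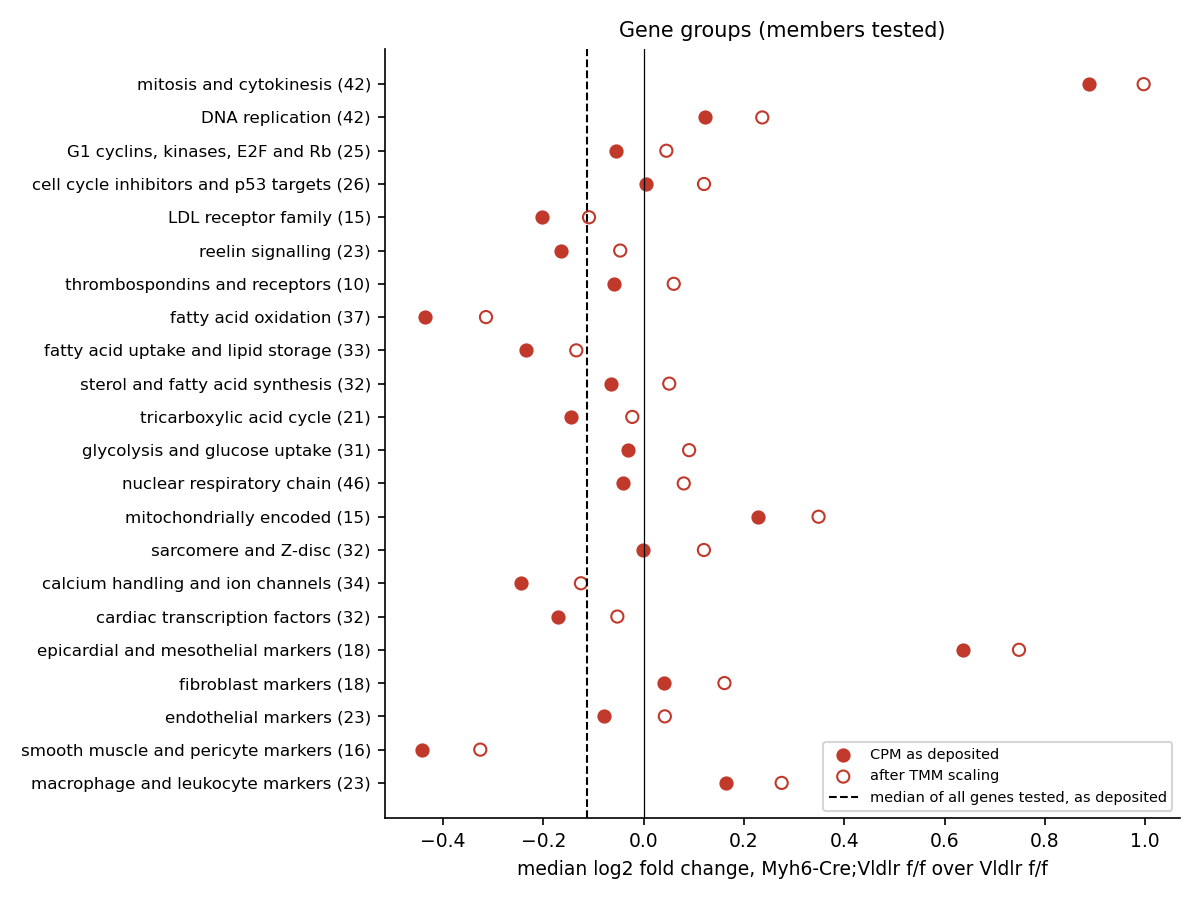
Median log2 fold change (cKO over Vldlr f/f, horizontal axis) of 22 gene groups, with the number of members tested in parentheses. Filled points are CPM as deposited, open points the same after TMM scaling, and the dashed line is the median of all genes as deposited, -0.11. Mitosis and cytokinesis (0.89) and epicardial and mesothelial markers (0.64) lie farthest right, smooth muscle and pericyte markers (-0.44) and fatty acid oxidation (-0.44) farthest left.

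The 15 genes of smallest p that were lower in cKO without overlap began with Camk2a. This isoform of calcium/calmodulin-dependent kinase II, best known from neurons, was 13.1, 11.4 and 8.17 CPM in cKO, 15.1, 19 and 8.22 CPM in cHet and 29.2, 29.2 and 32.8 CPM in Vldlr f/f libraries. The log2 fold change of cKO over Vldlr f/f was -1.42 ± 0.31 (SE, limma adjusted p = 0.996), and the cHet values also lay below the Vldlr f/f range. Abcc9, the sulfonylurea receptor subunit SUR2 of ATP-sensitive potassium channels in heart and vessels, was 94.2, 169 and 141 CPM in cKO, 213, 179 and 231 CPM in cHet and 248, 249 and 379 CPM in Vldlr f/f libraries, and the log2 fold change of cKO over Vldlr f/f was -1.12 ± 0.27 (SE, limma adjusted p = 0.996). The cHet libraries stood below all Vldlr f/f values and above all cKO values. Ptprd, a receptor tyrosine phosphatase, was 16.7, 26.4 and 31.3 CPM in cKO libraries, against 40.5, 57.3 and 68 CPM in Vldlr f/f libraries, and Nav2, a cytoskeletal regulator of neurite growth, was 40.7, 40.9 and 48.1 CPM in cKO libraries, against 78.7, 67.2 and 86.7 CPM in Vldlr f/f libraries. Vldlr was also among the 15.

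Several of the others encode nuclear proteins. Yeats2, a histone reader subunit of an acetyltransferase complex, was 20.8, 15.8 and 18.8 CPM in cKO libraries, against 37.2, 32.9 and 31.5 CPM in Vldlr f/f libraries. Ppp1r10, a nuclear targeting subunit of protein phosphatase 1, was 21.5, 18.1 and 13.4 CPM in cKO libraries, against 28, 33.7 and 53.6 CPM in Vldlr f/f libraries. Nabp1, a single-stranded DNA binding protein, was 7.66, 9.72 and 11.7 CPM in cKO libraries, against 14.9, 24.9 and 23.3 CPM in Vldlr f/f libraries. All 3 sets of cKO values were below the lowest Vldlr f/f value, as the rule of no overlap requires. Fubp3, a single-stranded nucleic acid binding protein, was 14.4, 11.5 and 13 CPM in cKO, 22.9, 20.4 and 28.4 CPM in cHet and 19.7, 25.4 and 31.3 CPM in Vldlr f/f libraries, with the cHet values inside the Vldlr f/f range. The zinc finger gene Zfp827 was 9.77, 5.47 and 11.8 CPM in cKO libraries, against 33, 16 and 29.4 CPM in Vldlr f/f libraries, and a second one, Zfp142, was 4.96, 9.81 and 5.34 CPM in cKO libraries, against 14.1, 15.1 and 13.3 CPM in Vldlr f/f libraries. Csnk1g1, a casein kinase, was 0.484, 2.91 and 3.18 CPM in cKO, 1.04, 11.8 and 6.3 CPM in cHet and 17, 13.8 and 18.5 CPM in Vldlr f/f libraries. Scai, a suppressor of a serum response factor coactivator, was 1.73, 8.1 and 1.83 CPM in cKO, 23.3, 10.4 and 16.9 CPM in cHet and 9.96, 20.1 and 23.1 CPM in Vldlr f/f libraries. Both varied over severalfold within a Cre genotype. Znrd1as, an antisense RNA, was 2.82, 2.55 and 2.51 CPM in cKO libraries, against 7.35, 9.8 and 7.09 CPM in Vldlr f/f libraries. Whether counting used strand is not stated in the labels, so it cannot be told apart from reads of genes on the other strand.

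**Figure D4:**
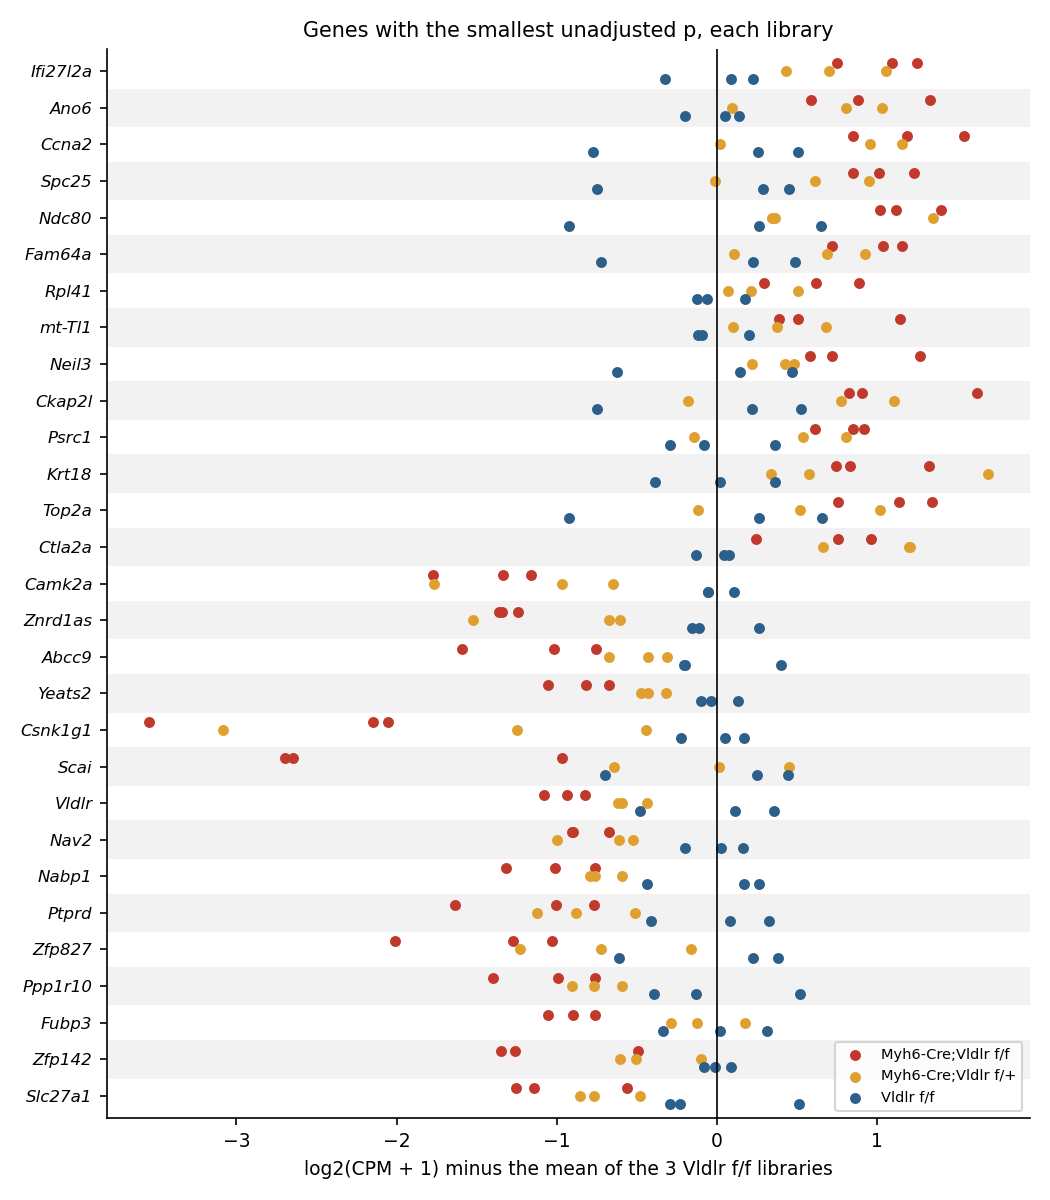
Log2(CPM + 1) minus the Vldlr f/f mean (horizontal axis) in each library for 14 genes higher and 15 lower in cKO, among those with the smallest unadjusted limma p and no overlap. Red points are Myh6-Cre;Vldlr f/f, orange Myh6-Cre;Vldlr f/+ and blue Vldlr f/f libraries. The rule requires red and blue points of a gene not to overlap, and orange points fall between them or on either side.

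Of 34 calcium handling and ion channel genes 26 were negative, with a median of -0.25 (-0.12 after TMM scaling). The median was -0.46 without replicate 2 of Vldlr f/f and -0.16 without replicate 1 of cKO. For 3 of them the cKO values lay below the Vldlr f/f range, a share near the 6.84% of all genes. Cacna1h, the T-type calcium channel Cav3.2 of the fetal heart, was 54.1, 28 and 31.5 CPM in cKO libraries, against 104, 83.6 and 61.6 CPM in Vldlr f/f libraries, a log2 fold change of -1.14 ± 0.32 (SE, limma adjusted p = 0.996). Ryr2, the calcium release channel of the sarcoplasmic reticulum, was 509.8, 702 and 545 CPM in cKO libraries, against 944, 729 and 1043 CPM in Vldlr f/f libraries, and its groups overlapped after TMM scaling. Cacnb2, a subunit of the L-type calcium channel, was 15.7, 39.9 and 38.3 CPM in cKO libraries, against 61.5, 56.7 and 60.6 CPM in Vldlr f/f libraries. The pore subunit Cacna1c overlapped, at 329, 156 and 194 CPM in cKO libraries, against 299, 393 and 372 CPM in Vldlr f/f libraries, as did the second T-type channel gene Cacna1g at 80.7, 40.7 and 29 CPM in cKO libraries, against 81.6, 70.4 and 84.7 CPM in Vldlr f/f libraries.

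The contractile genes were evenly split, 16 positive and 16 negative of 32 (median 0.00, and 0.12 after TMM scaling). Myh7, the slow myosin heavy chain of the fetal ventricle, was 968, 656 and 3475 CPM in cKO libraries, against 8892, 1405 and 4634 CPM in Vldlr f/f libraries. Its values varied over severalfold within both genotypes. Ttn, titin, was 2776, 1064 and 1351 CPM in cKO libraries, against 2085, 3666 and 2219.8 CPM in Vldlr f/f libraries, with overlap. Of 32 cardiac transcription factor genes 26 were negative (median -0.17, and -0.05 after TMM scaling). The median was -0.34 without replicate 3 of cKO. The groups did not overlap for 3 of them, all lower in cKO, a share near the 6.84% of all genes. Nfatc4, a calcineurin-responsive factor, was 8.72, 10.5 and 11.9 CPM in cKO libraries, against 17.6, 16.3 and 15.6 CPM in Vldlr f/f libraries. Esrra, a regulator of mitochondrial genes, was 139.6, 77.7 and 142 CPM in cKO libraries, against 175, 157 and 162 CPM in Vldlr f/f libraries. Irx4, a ventricular factor, was 142, 119 and 85.5 CPM in cKO libraries, against 144, 145 and 164 CPM in Vldlr f/f libraries, and overlapped after TMM scaling. Hey2, a ventricular Notch target, was 77.8, 52.6 and 63.8 CPM in cKO libraries, against 91.2, 75.4 and 90.7 CPM in Vldlr f/f libraries, and Mef2d, a MADS-box factor of muscle, was 145, 115 and 169 CPM in cKO libraries, against 219, 154 and 231 CPM in Vldlr f/f libraries, both with overlap.

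Markers of the outer layer of the heart were higher in cKO on average. Of 18 epicardial and mesothelial markers 16 were positive, with a median of 0.64 (0.75 after TMM scaling). The median was 0.37 without replicate 3 of cKO and 0.98 without replicate 1 of cKO. For 3 of them the cKO values lay above the Vldlr f/f range, beside 1.64% of all genes. Krt18, a keratin of simple epithelia, was 16.5, 15.5 and 23.7 CPM in cKO libraries, against 9.0, 11.6 and 6.52 CPM in Vldlr f/f libraries. Its partner keratin Krt8 was 7.15, 7.23 and 15.1 CPM in cKO libraries, against 6.6, 4.14 and 3.95 CPM in Vldlr f/f libraries. Msln, mesothelin, was 56.4, 60.6 and 129.5 CPM in cKO libraries, against 55.5, 38.6 and 23.9 CPM in Vldlr f/f libraries. The list was uneven within genotypes, with a sum of 507, 491 and 889 CPM in cKO, 1142, 624 and 617 CPM in cHet and 588, 445 and 368 CPM in Vldlr f/f libraries. These sums overlapped between cKO and Vldlr f/f, and the highest library was replicate 1 of cHet, not a cKO library. Among the males, the median member relative to the Vldlr f/f mean stood at 0.49 in cKO, beside -0.07 and -0.45 in Vldlr f/f. Among the females it stood at 0.17 and 1.40 in cKO, beside 0.38 in Vldlr f/f. The 2 negative members were Tcf21 and Tbx18, with log2 fold changes of -0.24 and -0.10. Upk1b, a uroplakin of mesothelium, was 8.06, 12.9 and 37.8 CPM in cKO libraries, against 10.7, 6.2 and 3.67 CPM in Vldlr f/f libraries. The groups overlapped, as they did for the mucin gene Muc16 at 4.4, 10.6 and 14.7 CPM in cKO libraries, against 7.73, 3.17 and 1.24 CPM in Vldlr f/f libraries and for Lrrn4 at 8.01, 18.4 and 29.1 CPM in cKO libraries, against 13.6, 6.2 and 5.05 CPM in Vldlr f/f libraries. Wt1, the defining transcription factor of the epicardium, was 4.45, 4.96 and 9.16 CPM in cKO libraries, against 6.04, 3.08 and 6.43 CPM in Vldlr f/f libraries and overlapped.

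Smooth muscle and pericyte markers were lower on average. Of 16 tested 13 were negative (median -0.44, and -0.33 after TMM scaling), and 5 separated the groups, Abcc9 above among them, beside 6.84% of all genes that were lower without overlap. After TMM scaling 3 did so, beside 4.00% of all genes. Among the males, the median member relative to the Vldlr f/f mean stood at -0.57 in cKO, beside -0.04 and 0.14 in Vldlr f/f. Among the females it stood at -0.21 and -0.39 in cKO, beside -0.04 in Vldlr f/f. Cspg4, the pericyte proteoglycan NG2, was 61.2, 43.8 and 37.3 CPM in cKO libraries, against 69.4, 71.4 and 72.8 CPM in Vldlr f/f libraries. Pdgfrb, the platelet-derived growth factor receptor of mural cells, was 96.3, 71.1 and 86.3 CPM in cKO libraries, against 108, 114 and 113 CPM in Vldlr f/f libraries. For both, the Vldlr f/f values lay within a narrow range above the cKO values. Myh11, smooth muscle myosin, was 23.1, 8.51 and 11 CPM in cKO libraries, against 24.5, 25.1 and 29.7 CPM in Vldlr f/f libraries. Vtn, vitronectin, was 4.46, 3.16 and 1.01 CPM in cKO libraries, against 4.6, 5.0 and 6.62 CPM in Vldlr f/f libraries. For Vtn and Myh11 a cKO value lay close to the Vldlr f/f range, and both overlapped after TMM scaling. Notch3, a mural cell receptor, was 58.6, 46.6 and 61.6 CPM in cKO libraries, against 115, 59.3 and 101 CPM in Vldlr f/f libraries and Kcnj8, the pore partner of the channel subunit that Abcc9 encodes, was 27.4, 30.9 and 19 CPM in cKO libraries, against 44.2, 28.7 and 39.8 CPM in Vldlr f/f libraries. Both overlapped. The 3 positive members were the smooth muscle markers Acta2, Cnn1 and Tagln, all with overlap. Acta2 was 820, 800 and 626 CPM in cKO libraries, against 328, 1012 and 388 CPM in Vldlr f/f libraries. Log2 fold changes of Cnn1 and Tagln were 0.17 and 0.12. The summed level of the list, which its most abundant members set, overlapped as well, at 1795, 1707 and 1561 CPM in cKO and 1604, 2215 and 1865 CPM in Vldlr f/f libraries. What part a different share of these cell types had in the values of Abcc9, Krt18 or any other gene was not tested.

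**Figure D5:**
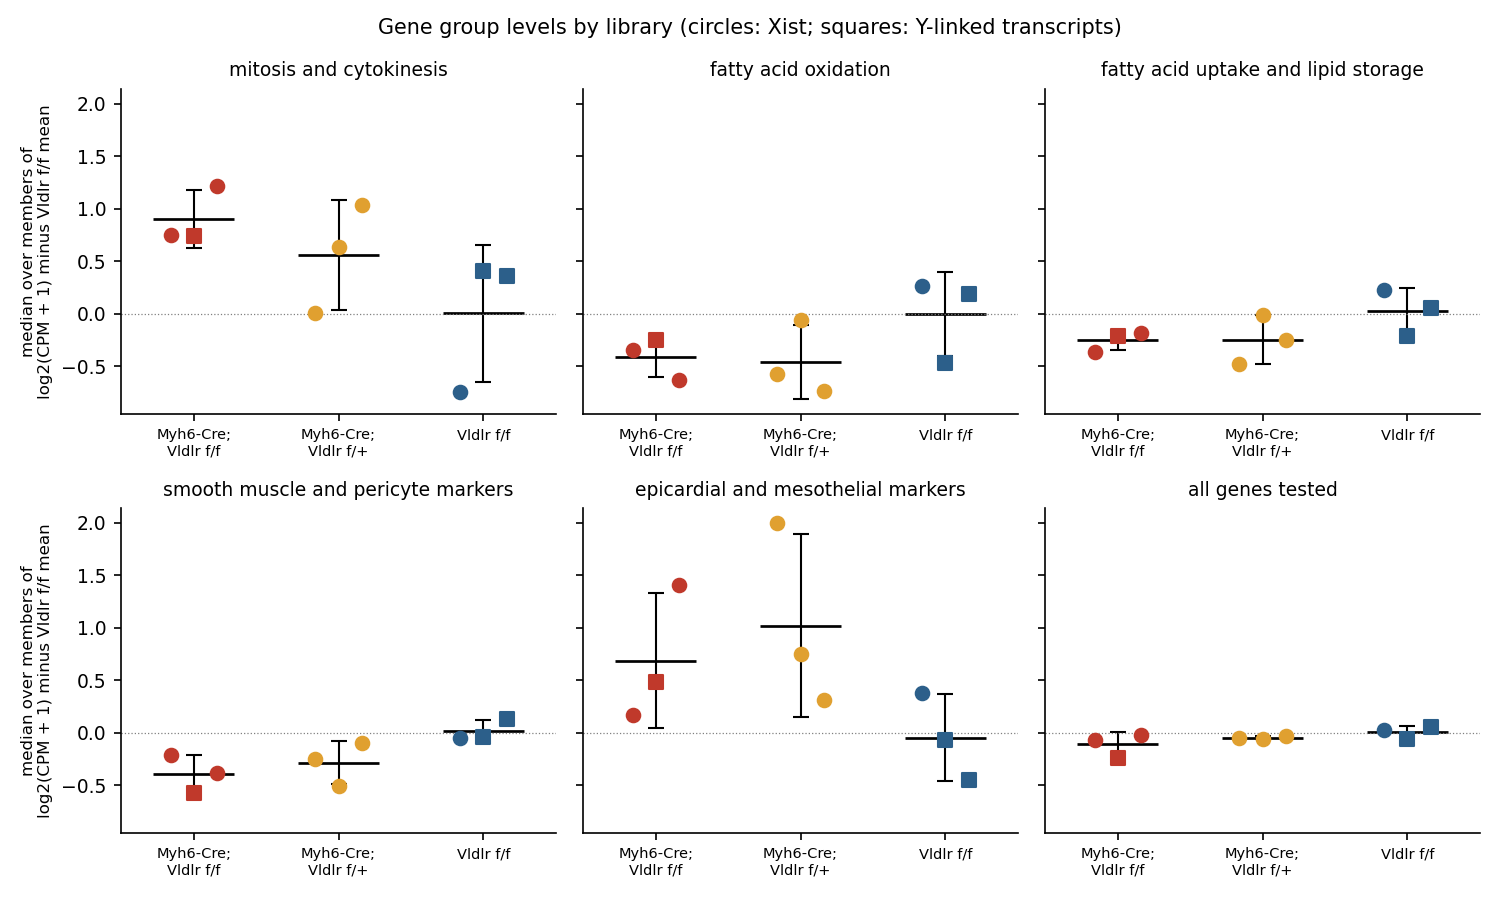
Median over the members of a list of log2(CPM + 1) minus the gene's Vldlr f/f mean (vertical axis) in each library, for 5 lists and for all 14464 genes. Circles are libraries with Xist, squares libraries with Y-linked transcripts, and bars the mean ± SD over the 3 libraries. For mitosis and for smooth muscle and pericyte markers the cKO libraries do not overlap the Vldlr f/f libraries, and for fatty acid oxidation replicate 2 of Vldlr f/f, at -0.47, lies among the cKO libraries.

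The other cell types and pathways gave medians from -0.17 to 0.23, apart from lists with under 10 members tested. Read against -0.11 for all genes, not all of these were smaller shifts than those above. As differences from that median, mitochondrially encoded transcripts were at 0.34, beside -0.32 for fatty acid oxidation. Macrophage and leukocyte markers were at 0.28, immediate early genes at 0.25, atrial genes at 0.24 and cytosolic ribosomal proteins at 0.23. The mitochondrially encoded list was at 0.23, with 14 of 15 positive. Its mt-Atp6, a subunit of ATP synthase, was 13758, 17449.5 and 10645 CPM in cKO libraries, against 1753, 15103 and 1824 CPM in Vldlr f/f libraries, 2 Vldlr f/f libraries far below all others, and mt-Nd1, a subunit of complex I, was 30507, 34206 and 20963 CPM in cKO libraries, against 16364, 25864 and 16775 CPM in Vldlr f/f libraries. mt-Atp6 shares bases with mt-Atp8 and mt-Co3 in the annotation. Of 23 endothelial markers 9 were positive and 14 negative (median -0.08, and 0.04 after TMM scaling), and 2 were lower without overlap, a share near the 6.84% of all genes. Prox1, a regulator of lymphatic endothelium that heart muscle also expresses, was 67.9, 59.2 and 58.1 CPM in cKO libraries, against 72.7, 88.4 and 118 CPM in Vldlr f/f libraries, and Cdh5, the endothelial cadherin, was 293, 238 and 278 CPM in cKO libraries, against 361, 295 and 373 CPM in Vldlr f/f libraries. Fibroblast markers were 9 positive and 9 negative of 18 (median 0.04). Of 32 TGF-beta genes 25 were negative (median -0.16, and -0.04 after TMM scaling), and 2 were lower without overlap, as were 2 of 34 Wnt and Notch genes, shares near that background. In the TGF-beta list these were Ltbp2, a latent TGF-beta binding protein family member, at 6.0, 6.1 and 5.59 CPM in cKO libraries, against 9.63, 16.9 and 17 CPM in Vldlr f/f libraries and Bmp5 at 4.14, 5.05 and 3.75 CPM in cKO libraries, against 6.88, 6.4 and 7.58 CPM in Vldlr f/f libraries. Of the Wnt and Notch genes 25 were negative (median -0.17), and those without overlap were Notch2 at 31.5, 24.5 and 26.1 CPM in cKO libraries, against 44.5, 37.7 and 44.4 CPM in Vldlr f/f libraries and Znrf3, which removes Wnt receptors, at 11.2, 8.0 and 7.97 CPM in cKO libraries, against 13.2, 11.8 and 16.5 CPM in Vldlr f/f libraries. Grb10, an imprinted adaptor that restrains insulin and IGF signalling, was 347, 402 and 326 CPM in cKO libraries, against 569, 407 and 775 CPM in Vldlr f/f libraries, and Fgf2, a fibroblast growth factor, was 7.4, 4.4 and 4.05 CPM in cKO libraries, against 0.721, 4.16 and 1.33 CPM in Vldlr f/f libraries, with overlap. Of the chaperones, Hsp90aa1 was 154, 183 and 213 CPM in cKO libraries, against 96, 89 and 158 CPM in Vldlr f/f libraries, with overlap. In the interferon list 3 of 46 genes were lower without overlap, a share near the 6.84% of all genes, Trim25 and Ifi203 among them. Trim25, a ubiquitin ligase, was 43.5, 9.7 and 18.6 CPM in cKO libraries, against 66.5, 46.7 and 69.4 CPM in Vldlr f/f libraries. Ifi203 was 3.21, 8.59 and 4.58 CPM in cKO libraries, against 11.3, 12.5 and 12.3 CPM in Vldlr f/f libraries. Ifit3 was 7.75, 8.51 and 4.62 CPM in cKO libraries, against 3.32, 4.29 and 4.89 CPM in Vldlr f/f libraries, with overlap.

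Setting cHet against Vldlr f/f, a comparison that shares the Vldlr f/f libraries, also called no gene (limma, 0.00%), with 348 genes at an unadjusted p under 0.05 (2.41%). Setting cKO against cHet called none (0.00%), with 131 (0.906%). Same-numbered cKO and cHet libraries deviated together from their group means (r = 0.464, 0.443 and 0.336). With the replicate number as a block in a limma fit of these 6 libraries 0 genes passed, with 524 at an unadjusted p under 0.05, and 0 passed without the block, with 111. The median of the mitosis and cytokinesis list was 0.89 for cKO over Vldlr f/f, 0.53 for cHet over Vldlr f/f and 0.36 for cKO over cHet. For fatty acid oxidation the same medians were -0.44, -0.42 and 0.03. For fatty acid uptake and lipid storage they were -0.23, -0.21 and 0.00. Smooth muscle and pericyte markers gave -0.44, -0.36 and -0.18, and epicardial and mesothelial markers 0.64, 1.02 and -0.25. Over all genes tested the medians were -0.11, -0.06 and -0.05. All cHet libraries were female, while replicates 2 and 3 of Vldlr f/f were male, so sex and genotype are mixed in cHet over Vldlr f/f. Vldlr had log2 fold changes of -0.94 in cKO and -0.55 in cHet over Vldlr f/f.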

How the data were processed

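RNA was extracted by TRIzol and sequenced as Illumina libraries, per the labels' protocols. Tools named in the submitters' processing notes are HISAT2 (2.1.0), StringTie (1.3.4) and edgeR (3.20.9), with mm10 as the mouse build and no roles. The preparation of the mouse cells, the annotation release and the use of strand are not given there. The authors deposited CPM per gene, with the same total in each library. The CPM can be divided into steps of which all values are whole multiples (66088372 to 78370879 steps a library, 100% whole within 0.05). A step need not be a read, so the number of fragments is unknown and no counting interval is given.

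The 4 rows with repeated, date-like names were left out. The trended fit of limma 3.58.1 in R 4.3.3 was made on log2(CPM + 1) of the 9 mouse libraries, with 1 mean per genotype, for 14464 genes with CPM of at least 1 in 3 of the 6 libraries, and Benjamini-Hochberg adjustment over all of them with calls at 0.05. The pseudocount of 1 understates changes of low genes. The fit was tested on simulated data. Alternatives were TMM scaling, pseudocounts of 0.25 and 5, other filters, leaving out each library, a replicate block, Ddx3y as a covariate, and edgeR 4.0.16 and DESeq2 1.42.0 on the recovered steps. In edgeR's count test on the recovered steps 0 genes were called.

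The genes, the 41 gene lists and the comparison were chosen with earlier results of these data known. Named genes are Vldlr, Reln, Thbs1 and the sex transcripts, up to 15 called genes a direction, or with none called those of smallest p with no overlap, a group mean of 5 CPM or more and a symbol that is not a clone identifier, and up to 6 members of smallest p and the defining members of each list described. Coordinates are from GENCODE M21 on GRCm38, where 12563 of the 14464 symbols were found. Replicate numbers paired cKO with cHet libraries by the data (every same-numbered correlation over 0.1), not by a stated origin, and a block fit of those 6 was added after seeing the data. A few genes that the rule or the lists name are not reported here.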

Additional observations from a re-analysis of the deposited data

How the results depend on the processing

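No gene was called higher under any of 21 alternatives. One was called lower under 3 of them: RP23-391M18.7, a clone identifier named after its values were seen, listed at 0, 0 and 0 CPM in cKO, 0, 0 and 3.14 CPM in cHet and 14.2, 56.4 and 42.4 CPM in Vldlr f/f libraries. Its adjusted p was 0.0883 in limma, 0.0276 with only the 6 libraries in the fit, 0.0423 without Vldlr f/f replicate 1 and 3.86e-09 in DESeq2, and 0.0802 to 1 under the other alternatives. Vldlr was lower under each alternative (log2 fold change -0.76 to -1.31), at unadjusted p of 0.00026 to 0.0118. Counts at an unadjusted p under 0.05 were less stable. For genes higher in cKO, 89 in the fit as reported, they were 172 after TMM scaling, 257 with no filter on low values, 56 with a mean of at least 5 CPM, 172 and 176 in edgeR (on steps and on steps divided by 4) and 263 in DESeq2. For genes lower, 352 as reported, they were 177 after TMM scaling, 844 with no filter, 151 and 154 in edgeR and 205 in DESeq2. Leaving out 1 library gave 48 to 149 higher and 186 to 778 lower. A pair of alternatives was added after seeing the data: leaving out the 3 libraries set apart on the first component gave 191 higher and 968 lower, and keeping only libraries with Xist above 100 CPM, which leaves 1 Vldlr f/f library, gave 156 and 105. Replicate numbers did not pair the cKO and Vldlr f/f libraries (correlations of same-numbered deviations -0.38, -0.29 and 0.05), nor cHet and Vldlr f/f (-0.29, -0.55 and -0.05). With a replicate block in the fit of cKO against Vldlr f/f 0 genes were called, with 108 higher and 401 lower at an unadjusted p under 0.05. Signs turned in 13 of 2459 combinations of a named gene and an alternative, with the markers Acta2, Cnn1, Tagln, Tcf21 and Tbx18 not counted. Thbs1 was at 0.016 after TMM scaling, -0.56 to 0.35 when single libraries were left out, 0.0036 without the 3 libraries and 1.26 in Xist libraries, and Xist at -0.14 without the 3 libraries. With single libraries left out Wt1 ran from -0.068 to 0.38 and Myh6 from -0.075 to 0.12. In libraries with Xist the median was 1.73 for mitosis and -0.82 for fatty acid oxidation. The cause of these differences was not tested. The number of fragments is unknown, so no limit set by depth is given.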

Other observations

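Genes chosen after their values were seen showed how the libraries fell apart across genotypes. Nnt, the mitochondrial transhydrogenase gene in which the C57BL/6J substrain carries a deletion, was 287, 48.8 and 15.3 CPM in cKO, 191, 11.2 and 6.89 CPM in cHet and 16.4, 419 and 78.2 CPM in Vldlr f/f libraries. The highest library of each genotype was the one set apart on the first principal component. Nedd4, a ubiquitin ligase gene, was 22.7, 200.4 and 309.6 CPM in cKO, 41.9, 267 and 48.1 CPM in cHet and 283, 38.9 and 258 CPM in Vldlr f/f libraries, and Map4, a microtubule-associated protein gene, was 26.8, 158 and 225 CPM in cKO, 21.1, 152 and 69.6 CPM in cHet and 220.0, 24.2 and 178 CPM in Vldlr f/f libraries. RP23-444H18.3, a clone identifier, was listed at 0 in these 3 libraries and at 299 to 429 CPM in the other 6. In all, 24 genes of those tested went between 0 and at least 5 CPM within cKO or within Vldlr f/f, the 5 sex transcripts among them.

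Replicate 3 of cKO and of cHet had the highest levels of 3 genes, chosen after their values were seen. Nppb, which encodes B-type natriuretic peptide, was 109, 354 and 1967 CPM in cKO, 64.4, 222 and 1958 CPM in cHet and 94.8, 318 and 55.5 CPM in Vldlr f/f libraries, highest in replicate 3 of both Cre genotypes. Ankrd1, a stretch-responsive sarcomere gene, was 363, 1196 and 1733 CPM in cKO, 406, 827 and 1673 CPM in cHet and 540.1, 836 and 370.3 CPM in Vldlr f/f libraries. Cdkn1a, the p21 inhibitor and p53 target, was 21.4, 36.6 and 149 CPM in cKO, 15.1, 27.9 and 118 CPM in cHet and 53.2, 38 and 29.7 CPM in Vldlr f/f libraries. Those 2 libraries also lay together on the second principal component, with 17.3% of the variance. The 13 cardiac stress and fetal genes as a list followed them in part. Their median relative to the Vldlr f/f mean was 0.54 in replicate 3 of cKO, the highest library, and -0.02 in replicate 3 of cHet. Their sum was 12763 and 13847 CPM in these 2 libraries, each the highest of its genotype, beside 14029 CPM in replicate 1 of Vldlr f/f. The groups of all 3 genes overlapped between cKO and Vldlr f/f.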
